A study of Rattus norvegicus with 6 samples.

Results

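The genes described here are Tardbp, which encodes TDP-43, and RNA-binding proteins that work beside it, namely the hnRNP A proteins Hnrnpa1, Hnrnpa2b1 and Hnrnpa3, the FET proteins Taf15 and Ewsr1, and the nuclear matrix protein Matr3. They were chosen by gene symbol. Of these 7 genes, 5 carried a probe under their symbol, with 1 probe each, out of 13337 genes named by 13793 probes, and all 5 were tested. Ewsr1 and Matr3 carried no probe named for them and are not analysed here.

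Cultured primary rat astrocytes of 2 genotypes were measured on Illumina rat beadchips, with 1 array per genotype at 3, 4 and 6 days after doxycycline (Dox) was withdrawn, 6 arrays in all. The M337V cells came from rats carrying a GFAP-tTA and a TRE-TDP43 M337V transgene, and the control cells, called tTA here, came from rats carrying GFAP-tTA alone, so both genotypes carry the tTA activator and both went through Dox withdrawal. The GFAP promoter, active in astrocytes, drives tTA, and tTA drives the mutant TDP-43 transgene only when Dox is absent. Nothing in the labels ties an array to a culture or an animal, or says whether animals were pooled, so the spread between these arrays may be technical. No genotype had a replicate array on any day. In the main fits, the error behind the genotype and day p-values is therefore built from how unequal the genotype difference was over the days. Each gene's own value (2 degrees of freedom) is combined with one shared over all genes tested (3.53 prior degrees of freedom). That error mixes noise with any real change of the difference with time. The animals' age was not stated.

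TDP-43 binds UG-rich RNA and acts in splicing, transport and stability of RNA, and it lowers its own messenger RNA by binding the transcript's end. It shuttles between nucleus and cytoplasm, and in amyotrophic lateral sclerosis (ALS) it is lost from the nucleus and aggregates in the cytoplasm. The hnRNP A proteins bind its glycine-rich tail, and both they and the FET proteins carry similar low-complexity regions, in which mutations are linked to ALS or related diseases.

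Each array held 22523 probes, its mean signal lay between 377 and 554, and 43.8% to 48.3% of the probes were detected (detection p under 0.05). All 7 astrocyte markers with a named probe, of 10 listed, were detected on every array, and their summed normalized signal ran from 70465 to 83393 in tTA and from 84106 to 87143 in M337V. Gfap stood between 14.91 and 15.115 (log2 normalized signal) throughout, while Aqp4 (log2 difference 0.79, adjusted p = 0.021) and S100b (0.93, 0.0118) were called higher in M337V, 2 of the 7, and 0 were called lower. The quantile normalization used here gives probes of the same rank the same level on every array. Gfap read exactly 15.115 in tTA on day 6 and in M337V on day 4, and 15.044 in M337V on days 3 and 6. Its narrow range may thus come from the normalization and does not show that its amount was constant. Markers of other cell types differed between the genotypes too. Of 12 microglia and macrophage genes tested, 10 were called higher in M337V and 0 lower, where 9.75% of all genes tested were called higher and 9.85% lower. Their summed normalized signal ran from 327 to 624 in tTA and from 7828 to 25659 in M337V. In tTA 5 of these 12 genes were not detected on any array, and the microglial gene Aif1 was detected on 1 of 3. Genes were tested if detected on at least 3 of 6 arrays, so those 5 entered through their M337V arrays alone. The same holds for Snap25 among the neuron genes and Lum among the fibroblast genes below. Summed signals of 7 oligodendrocyte lineage genes (5 higher) were 3371 to 3957 in tTA and 7198 to 13599 in M337V, and of 8 neuron genes (5 higher) 369 to 416 and 1958 to 3159. The rise was uneven over the neuron genes: the median log2 difference was 0.58, the largest was 4.94 (Gap43), and 3 were not called. Those of 4 ependymal genes (4 higher) were 513 to 1275 in tTA and 2771 to 4629 in M337V, those of 2 endothelial genes (1 higher, 1 lower) were 66 to 78 and 80 to 87, and those of 6 fibroblast genes (1 higher, 5 lower) were 39656 to 56341 and 17126 to 30241. The part of these cell types in any difference below was not tested, and in such bulk samples more cells of a type and more RNA per cell cannot be told apart.

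Promoter sequences from RefSeq (build GRCr8) are shown for the 4 measured genes that have an entry in the promoter table, to set the regulatory sequence of Tardbp beside that of the hnRNP A genes. Each is the 250 bases before the annotated start, on the gene's strand, and lies at chr5:164345205-164345454 (minus strand) for Tardbp, chr7:136253868-136254117 (plus) for Hnrnpa1, chr4:81875887-81876136 (minus) for Hnrnpa2b1 and chr3:80985684-80985933 (plus) for Hnrnpa3. Capitals mark the letters TGACGT, searched on both strands.
Tardbp: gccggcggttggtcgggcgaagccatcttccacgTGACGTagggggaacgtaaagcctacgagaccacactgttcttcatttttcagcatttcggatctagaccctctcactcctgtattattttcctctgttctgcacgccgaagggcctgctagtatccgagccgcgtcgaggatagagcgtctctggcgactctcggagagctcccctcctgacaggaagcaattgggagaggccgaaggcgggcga
Hnrnpa1: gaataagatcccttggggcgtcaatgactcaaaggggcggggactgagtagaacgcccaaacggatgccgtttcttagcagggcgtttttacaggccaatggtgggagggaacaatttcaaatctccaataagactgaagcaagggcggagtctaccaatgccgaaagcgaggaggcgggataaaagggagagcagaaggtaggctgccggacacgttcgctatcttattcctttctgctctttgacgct
Hnrnpa2b1: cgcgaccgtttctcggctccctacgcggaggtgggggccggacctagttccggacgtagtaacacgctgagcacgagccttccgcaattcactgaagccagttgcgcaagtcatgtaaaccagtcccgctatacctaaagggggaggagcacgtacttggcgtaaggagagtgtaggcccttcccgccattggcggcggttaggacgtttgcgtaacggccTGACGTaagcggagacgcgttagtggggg
Hnrnpa3: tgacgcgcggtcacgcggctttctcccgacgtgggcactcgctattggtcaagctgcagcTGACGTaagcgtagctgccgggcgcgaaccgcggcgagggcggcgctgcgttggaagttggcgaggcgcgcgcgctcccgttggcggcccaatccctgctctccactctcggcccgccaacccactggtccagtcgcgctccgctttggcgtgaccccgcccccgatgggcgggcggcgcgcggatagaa
The letters TGACGT, the core of the cyclic AMP response element, occur once each in Tardbp (216 bases before the start), Hnrnpa2b1 (29 bases) and Hnrnpa3 (190 bases), all on the gene's strand, and not in the Hnrnpa1 window. Among 33469 promoters of the same length 6.95% hold them. The GC content was 57.6% for Tardbp, 52% for Hnrnpa1, 60.4% for Hnrnpa2b1 and 71.2% for Hnrnpa3. The median over those promoters was 51.2%, and the shares given here were not adjusted for base content. The letters CCAAT, likewise searched on both strands and not overlapping TGACGT in these windows, occur in all 4: 3 times in Hnrnpa1, 2 times in Hnrnpa3 and once in each of the other two, against 34% of all promoters. Both motifs were chosen after these sequences had been read, and a match describes letters only.

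The first comparison asks how the levels of these transcripts differed between M337V and tTA astrocytes of the same day. Of the 5 genes, Hnrnpa1 was called higher (1.35-fold) and Taf15 called lower (1.35-fold) in M337V, at a Benjamini-Hochberg adjusted p under 0.05 in limma's fit. Tardbp, Hnrnpa2b1 and Hnrnpa3 had positive differences of 0.23 to 0.38 on the log2 scale that did not pass. All 5 differences kept their sign on all 3 days, 4 of them positive and 1 negative. Over the 7580 genes tested, 19.6% were called, 9.75% higher and 9.85% lower, 55.3% kept one sign on all 3 days, with 23.1% positive and 32.2% negative on all 3. The median difference was 0.32 over the 5 genes and -0.05 over all genes tested. Levels below are log2 of background-corrected, quantile-normalized signal, and since probes bind with different strength a level is compared only with the same probe on other arrays.

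Tardbp read 11.20, 11.23 and 10.83 in M337V on days 3, 4 and 6 and 11.08, 10.87 and 10.62 in tTA. The M337V array was the higher of the pair on each day, while the 2 ranges overlapped. The group means were 11.09 ± 0.22 (SD, n = 3) in M337V and 10.86 ± 0.23 (SD, n = 3) in tTA, so the distance between the genotypes was about as large as the spread over days within one. The difference of 0.23 ± 0.10 (SE, 95% interval -0.03 to 0.48) did not pass in limma (adjusted p = 0.187). By days it was 0.11, 0.36 and 0.21, and 45.5% of all genes tested had a larger absolute difference. It passed in 1 of 15 alternative settings, with a variance trend (adjusted p = 0.046), and was 0.12 with the deposited values (0.345). Before normalization the signals were 1857, 2723 and 2293 in M337V and 2242, 1891 and 1659 in tTA. On day 3 the raw signal was thus lower in M337V, on an array whose mean signal was 377 against 481 for its partner. Whether this probe binds the transgene's transcript was not tested, so its level does not measure how far the transgene was induced.

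Hnrnpa1 encodes hnRNP A1, a splicing repressor that binds the tail of TDP-43 and in which mutations cause a form of ALS. It read 7.54, 7.15 and 6.61 in M337V and 7.11, 6.61 and 6.29 in tTA on days 3, 4 and 6. The M337V array was higher on every day, and the ranges overlapped because both genotypes fell with time. The difference was 0.43 ± 0.10 (SE, 95% interval 0.18 to 0.68; limma, adjusted p = 0.0378), and it was 0.43, 0.54 and 0.32 on the 3 days. Without the day as a block it did not pass (adjusted p = 0.373), and without day 3, 4 or 6 the adjusted p was 0.0961, 0.207 and 0.0726. The probe is dim, with raw signals of 150 to 253, and the deposited values gave a difference of 0.24 (adjusted p = 0.0601, not called) and median scaling 0.55. The rat gene table lists 50 pseudogenes named after Hnrnpa1, and whether the probe also binds transcripts of those was not tested.

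Hnrnpa2b1 encodes hnRNP A2/B1, a close relative that also carries RNA to distant parts of the cell. It read 11.06, 10.99 and 10.49 in M337V and 10.52, 10.47 and 10.41 in tTA. The M337V arrays of days 3 and 4 stood above every tTA array, and that of day 6 lay within the tTA range. The difference was 0.38 ± 0.13 (SE, 95% interval 0.06 to 0.70) and did not pass (limma, adjusted p = 0.0993), except in 3 of 15 alternatives. By day it was 0.54, 0.52 and 0.08.

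Hnrnpa3, whose product hnRNP A3 binds RNA as the other A-type proteins do, read 11.03, 11.06 and 11.03 in M337V and 10.66, 10.57 and 10.95 in tTA. The M337V levels were almost the same on all days (SD 0.013, n = 3), every one of them above the tTA levels, which varied more (SD 0.20, n = 3). The difference was 0.32 ± 0.12 (SE, 95% interval 0.02 to 0.61), which did not pass (limma, adjusted p = 0.128), except in 2 of 15 alternatives. It was 0.38 and 0.49 on days 3 and 4 and 0.08 on day 6, when the tTA level was at its highest.

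Taf15 encodes a FET protein that binds RNA and takes part in transcription by RNA polymerase II. It read 8.36, 8.48 and 8.20 in M337V and 8.86, 8.71 and 8.77 in tTA. In these normalized levels all M337V arrays stood below all tTA arrays. Before normalization the signals were 323, 501 and 459 in M337V and 533, 475 and 502 in tTA. On day 4 the raw signal was thus higher in M337V, on an array whose mean signal was 526 against 468 for its partner. The difference in normalized level was -0.43 ± 0.11 (SE, 95% interval -0.71 to -0.16, limma, adjusted p = 0.0486), with -0.50, -0.24 and -0.57 on days 3, 4 and 6. That call lies at the threshold: it was lost in 8 of 15 alternatives, among them the fit without the day as a block (adjusted p = 0.0535), median scaling (0.244) and the fits without day 3 (0.132), day 4 (0.0989) or day 6 (0.16). Together with Hnrnpa3 it was 1 of 2 genes of the 5 whose genotype groups did not overlap, where 34% of all genes tested did not overlap.

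**Figure D1:**
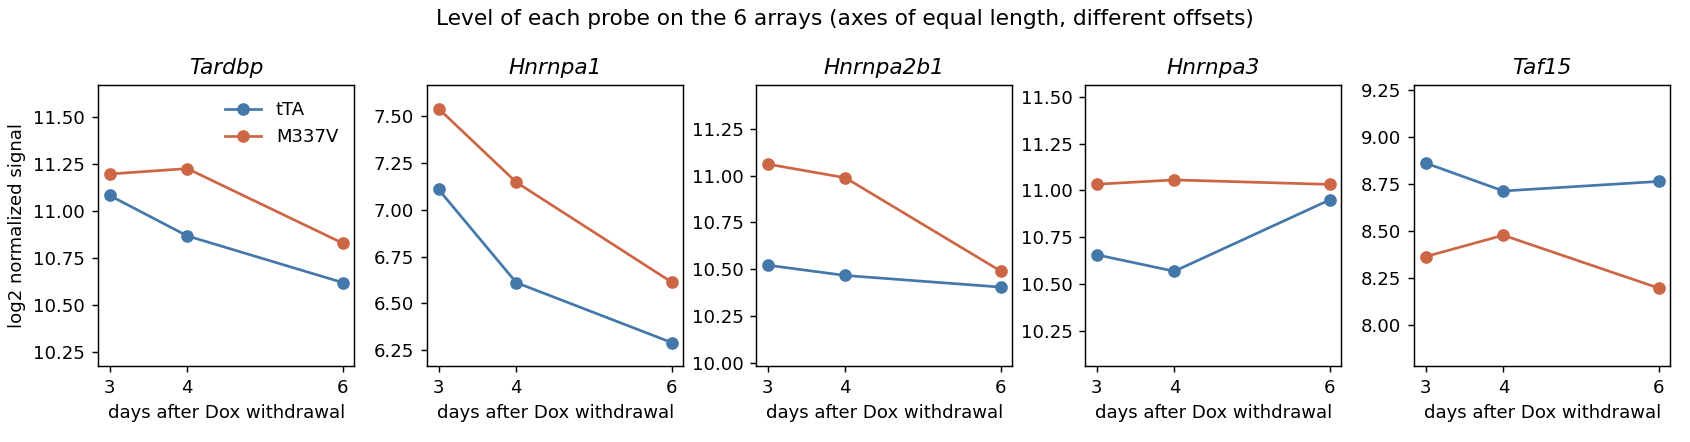
Level of each probe (log2 normalized signal, y) against days after Dox withdrawal (x) on the 3 tTA and 3 M337V arrays, 1 point per array, with axes of equal length and different offsets. The M337V line lies above the tTA line for Tardbp, Hnrnpa1, Hnrnpa2b1 and Hnrnpa3 and below it for Taf15 on every day.

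**Figure D2:**
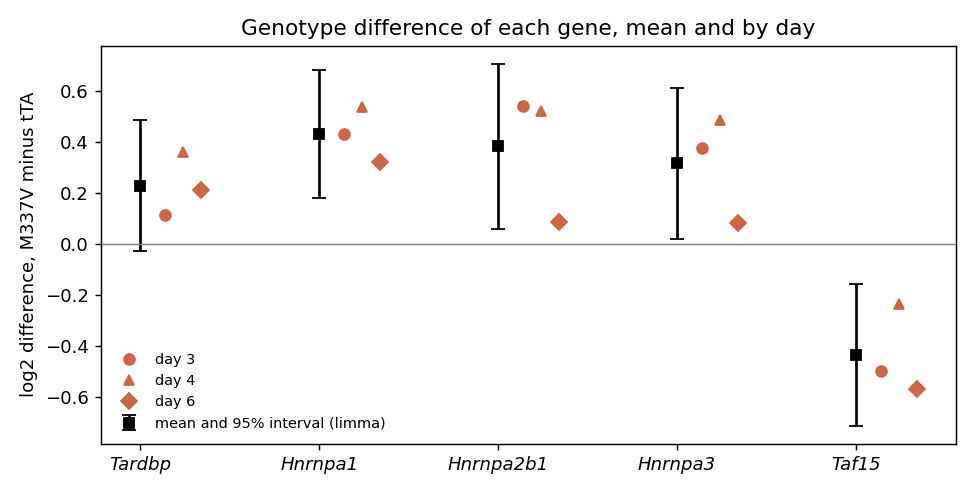
Log2 difference, M337V minus tTA (y), of each gene (x): black squares give the mean with its 95% interval from limma, coloured symbols the difference on days 3, 4 and 6. Hnrnpa1 at 0.43 and Taf15 at -0.43 were called, and the day 6 points of Hnrnpa2b1 and Hnrnpa3 lie near 0 (0.08 each).

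Taf15 and the other 4 genes can also be set against each other inside an array, a quantity that scaling between arrays does not change. On the raw signals the log2 ratio of Hnrnpa1 to Taf15 was higher in M337V than in tTA by 0.73, 0.47 and 0.64 on days 3, 4 and 6. For Hnrnpa2b1 the same quantity was 0.85, 0.65 and 0.47, for Hnrnpa3 it was 0.70, 0.62 and 0.475, and for Tardbp it was 0.45, 0.45 and 0.60. All 12 values were positive. This largely restates the directions above, since after normalization Taf15 was lower and the other 4 genes higher in M337V on every day. The raw signals themselves did not all go that way. On day 4 Taf15 was higher in M337V (501 against 475), and on day 3 Tardbp (1857 against 2242) and Hnrnpa3 (1658 against 1691) were lower. The raw signals also still hold background, and the difference of the dim Hnrnpa1 probe was 0.26 without background correction against 0.43 with it. The pairs were chosen after the directions were seen, so no test is given, and all 4 ratios share the Taf15 signal.

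The second comparison asks how these levels changed with time after Dox withdrawal, in the same fit, over both genotypes. Hnrnpa1 fell by 0.87 ± 0.12 on the log2 scale from day 3 to day 6 (limma, adjusted p = 0.0363), which is 1.83-fold. Of all genes tested 2.84% were called for this change, 1.73% higher and 1.11% lower. The change of Hnrnpa1 was -0.82 in tTA and -0.93 in M337V, and each later day was lower than the one before in both genotypes. Before normalization its signals on days 3, 4 and 6 were 211, 172 and 150 in tTA but 212, 253 and 213 in M337V. The mean signal of those M337V arrays was 377, 526 and 554, and the fall in M337V appeared only after normalization. The Hnrnpa1 change kept its call in 9 of 11 alternatives. The call was lost with median scaling (adjusted p = 0.0755, log2 change -0.65) and without day 4 (0.084, with 0 genes called higher and 1 lower in that fit). The change was -0.52 without background correction and -0.525 with the deposited values. Markers of other cell types changed with day as well: 5 of 12 microglia genes and 1 of 4 ependymal genes were called higher at day 6, and 2 of 6 fibroblast genes and 1 of 8 neuron genes lower. The summed fibroblast signal went from 56341 at day 3 to 39656 at day 6 in tTA and from 30241 to 17126 in M337V, and the microglia sum from 327 to 624 and from 7828 to 25659. Their part in the changes with day was not tested.

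Of the 5 genes, 4 were lower at day 6 than at day 3 in both genotypes, as were 32.8% of all genes tested. The level was lower at each later day for 3 of the 5 in tTA (23.3% of all genes) and for 2 of the 5 in M337V (26.6%). Tardbp was lower at day 6 than at day 3 by a similar amount in tTA (-0.47) and in M337V (-0.37). Its mean change of -0.42 ± 0.13 did not pass (limma, adjusted p = 0.137), though it did with a variance trend (0.0126) and without background correction (0.0297), and was -0.20 with median scaling. In tTA the level was lower at each later day (steps of -0.22 and -0.25), whereas in M337V it stayed level from day 3 to day 4 (0.03) and was lower by day 6 (-0.40). Hnrnpa2b1 moved by -0.12 in tTA and by -0.57 in M337V, a mean of -0.34 ± 0.16 that did not pass (limma, adjusted p = 0.272) and was -0.125 with median scaling. Hnrnpa3 moved by 0.29 in tTA and by -0.001 in M337V (mean 0.15 ± 0.14, adjusted p = 0.597), and Taf15 by -0.10 and -0.17 (mean -0.13 ± 0.14, adjusted p = 0.609). With median scaling Hnrnpa3 was at 0.37, and the direction for Taf15 turned (0.10).

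**Figure D3:**
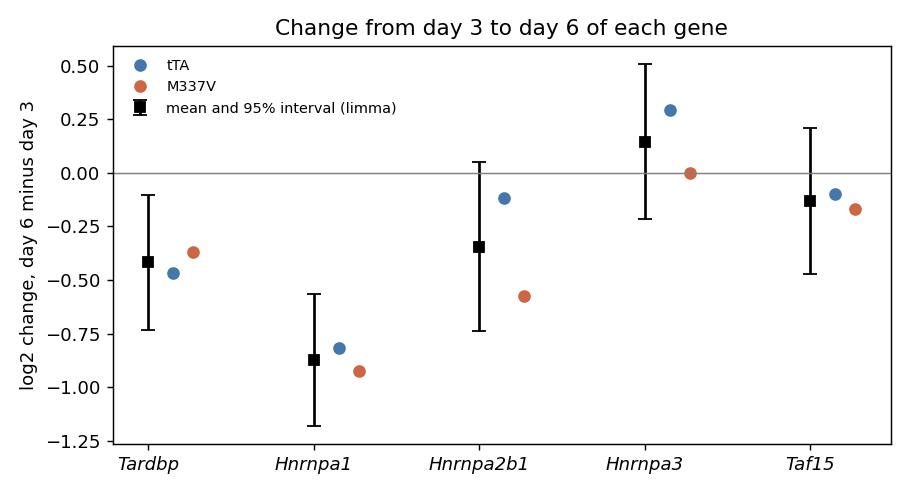
Log2 change from day 3 to day 6 (y) of each gene (x): black squares give the mean over both genotypes with its 95% interval from limma, coloured points the change in tTA and in M337V, 1 array pair each. Hnrnpa1 is the gene called lower (-0.87), and the widest gap between genotypes is that of Hnrnpa2b1 (-0.12 and -0.57).

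The last comparison asks whether the genotype difference grew or shrank from day 3 to day 6, as a slope per day. None of the 5 genes passed. Hnrnpa2b1 had the steepest estimate among them, -0.16 ± 0.08 log2 units per day (95% interval -0.37 to 0.04; limma, adjusted p = 0.605), followed by Hnrnpa3 at -0.11 ± 0.09 (-0.33 to 0.10; adjusted p = 0.733). The slopes of Hnrnpa1, Taf15 and Tardbp were -0.05, -0.04 and 0.02, with adjusted p from 0.911 to 0.975. Of all genes tested 0% were called by limma here (741 had an unadjusted p under 0.05), in a fit with 1 residual degree of freedom. The intervals of these 5 slopes together run from -0.37 to 0.23 per day, so a rising or falling difference could not be told from a constant one.

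Across the 6 arrays the genes whose levels followed Tardbp most closely were Kcnmb4, a subunit of calcium-activated potassium channels (Pearson r = 0.996), the spindle checkpoint kinase Ttk (0.994), the actin nucleation subunit Arpc2 (0.988), the Ran-binding protein Ranbp1 (0.986) and the RNA 3' end processing factor Cpsf6 (0.983). Among the partners Hnrnpa1 had r = 0.946 with Tardbp and Hnrnpa2b1 0.849, while Hnrnpa3 (0.158) and Taf15 (-0.219) did not follow it. In all, 112 of the other 7579 genes had r over 0.9. Kcnmb4 lay low, between 4.70 and 5.61, where C1qa, not detected in tTA, read 4.56 to 4.96 there. Arpc2 hardly moved, between 12.67 and 12.83, while Tardbp lay between 10.62 and 11.23. The correlations are descriptions over 6 arrays that share 2 genotypes and 3 days. Ttk, for example, read 7.51, 6.995 and 6.35 in tTA and 7.865, 7.81 and 7.002 in M337V, highest, like Tardbp, in M337V at days 3 and 4 and lowest in tTA at day 6.

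Around these genes, 6 lists held other RNA-binding proteins and the factors that import, modify or answer to them, 109 genes in all, of which 78 were tested. Of the 78, 1 was called higher and 4 lower in M337V, or 6.41%, against 19.6% of all genes, and the median difference was 0.02 against -0.05. The count depended on the setting: without a day it was 0 higher and 1 or 2 lower, while 9 were higher with a variance trend, 5 without background correction and 3 with an offset of 50. Among 19 other hnRNP genes tested 0 were called (median 0.09, range -0.35 to 0.26), but 3 were called higher with a variance trend and 1 lower, Hnrnpab, without day 3. The largest differences there were those of Hnrnpab (-0.35 ± 0.22, adjusted p = 0.324), Hnrnpr (-0.31 ± 0.20, 0.338), the AU-rich element binding protein gene Hnrnpd (0.26 ± 0.10, 0.134) and Hnrnph3 (0.25 ± 0.10, 0.137). Hnrnpab was at -0.69 without day 3 (adjusted p = 0.0352) and at -0.13 without day 4. Hnrnpr was detected on 2 tTA arrays and 1 M337V array, and was at -0.011 without day 3.

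Of 9 tested FET and paraspeckle partners 1 fell and 0 rose (median 0.03). Ddx17, an RNA helicase that also works with the microRNA processor, read 6.81, 6.43 and 6.57 in tTA and 6.30, 6.03 and 5.945 in M337V. Its groups did not overlap, and the difference was -0.51 ± 0.10 (limma, adjusted p = 0.0231). It did not pass without the day as a block (adjusted p = 0.0645), with median scaling (0.202) or without any 1 of the days (0.0654 to 0.0875), and was -0.26 without background correction. Drosha, the nuclease of microRNA processing, stood at 0.31 ± 0.09 (adjusted p = 0.0787), its partner Dgcr8 at -0.19 ± 0.11 (0.29) and the paraspeckle gene Pspc1 at -0.24 ± 0.19 (0.436). Drosha passed in 3 of 15 alternatives, Dgcr8 was detected on 2 of 3 M337V arrays, and Pspc1 ran from -0.505 without day 3 to -0.038 without day 4.

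Of 13 tested stress granule and ALS-linked genes 0 were called (median 0.01, range -0.29 to 0.30). G3bp1, which nucleates stress granules, stood at 0.30 ± 0.10 (limma, adjusted p = 0.0865) and Fxr2, of the fragile X family, at -0.29 ± 0.09 (0.0871). Atxn2l was at -0.27 ± 0.11 (0.168), and the ribonuclease gene Ang at 0.23 ± 0.15 (0.34). G3bp1 passed in 3 of 15 alternatives, while the other 3 passed in 0, and Ang ran from 0.13 to 0.42 when a day was left out.

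Of 11 tested import and export genes 1 fell and 0 rose (median 0.08). Tnpo2 encodes a transportin, the receptor family that carries hnRNP A and FET proteins into the nucleus. It read 6.59, 6.59 and 6.05 in tTA and 5.58, 5.64 and 5.69 in M337V, without overlap, and was 1.71-fold lower (-0.77 ± 0.16, limma, adjusted p = 0.0243). The size was -0.35 without background correction and -0.37 with the deposited values, and the call was lost without day 3 (adjusted p = 0.0805) and without day 4 (0.112). The exportin Xpo1 (0.27 ± 0.10, adjusted p = 0.129), the importin Kpna4 (-0.24 ± 0.10, 0.152) and Cse1l, which returns importins to the cytoplasm (0.23 ± 0.09, 0.158), did not pass, except Xpo1 in 2 and Cse1l in 1 of 15 alternatives.

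Of 11 tested modifying enzymes 1 rose and 0 fell (median -0.09). Parp1, which makes the poly(ADP-ribose) that hnRNP A1 and TDP-43 can bind, read 10.17, 10.19 and 10.15 in tTA and 10.59, 10.54 and 10.545 in M337V. Its groups were tight and apart (0.39 ± 0.09, limma, adjusted p = 0.0415), but it did not pass in 5 of 15 alternatives, among them those without any 1 of the days (0.111 to 0.169). The casein kinase genes Csnk2a1 (-0.32 ± 0.13, adjusted p = 0.143), Csnk1a1 (-0.27 ± 0.14, 0.24) and Csnk1d (-0.24 ± 0.13, 0.278), whose products can phosphorylate TDP-43, did not pass here or in any of 15 alternatives. Leaving out a day moved Csnk1d from -0.365 (day 3) to -0.088 (day 4), and took Csnk1a1 to -0.096 without day 4 and Csnk2a1 to -0.198 without day 6.

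Of 15 tested transcripts listed as TDP-43 targets 2 fell and 0 rose (median -0.23). The list was drawn from general knowledge of other cells and was not checked against a source here. Rock2, a kinase that acts on the actin cytoskeleton, read 8.54, 8.32 and 8.23 in tTA and 7.285, 7.58 and 7.18 in M337V. It was 2.02-fold lower (-1.01 ± 0.13, limma, adjusted p = 0.00684) and passed in all 15 alternatives (adjusted p from 7.75e-05 to 0.0212). The muscle and neuron transcription factor gene Mef2d fell by 0.40 ± 0.10 (adjusted p = 0.0441), was detected on 2 of 3 M337V arrays and passed in 3 of 14 alternatives (-0.145 without background correction). Cdk6, a cell cycle kinase, was at -0.44 ± 0.21 (limma, adjusted p = 0.216). It was detected on 1 of 3 M337V arrays and was at -0.163 without background correction. Stmn2, a tubulin-binding protein of neurons, was at 0.44 ± 0.17 (limma, adjusted p = 0.139). It read 10.93, 11.32 and 11.32 in tTA and 11.80, 11.72 and 11.37 in M337V. In the same arrays 5 of 8 neuron markers were higher, and the part of neurons in the Stmn2 difference was not tested. Stmn2 passed in 2 of 15 alternatives and ran from 0.22 without day 3 to 0.63 without day 6, and Cdk6 ran from -0.73 to -0.18 when a day was left out.

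**Figure D4:**
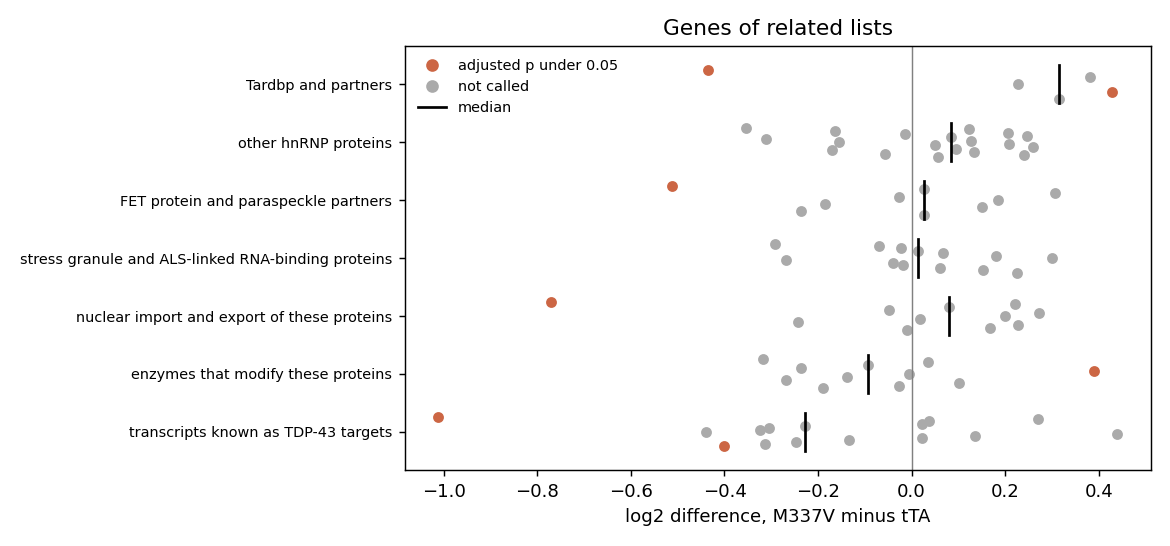
Log2 difference, M337V minus tTA (x), of each tested gene by list (y), with called genes in colour, the others in grey and the list's median as a bar. In the 6 related lists 5 of 78 genes were called, and Rock2 at -1.01 lies farthest from 0.

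**Figure D5:**
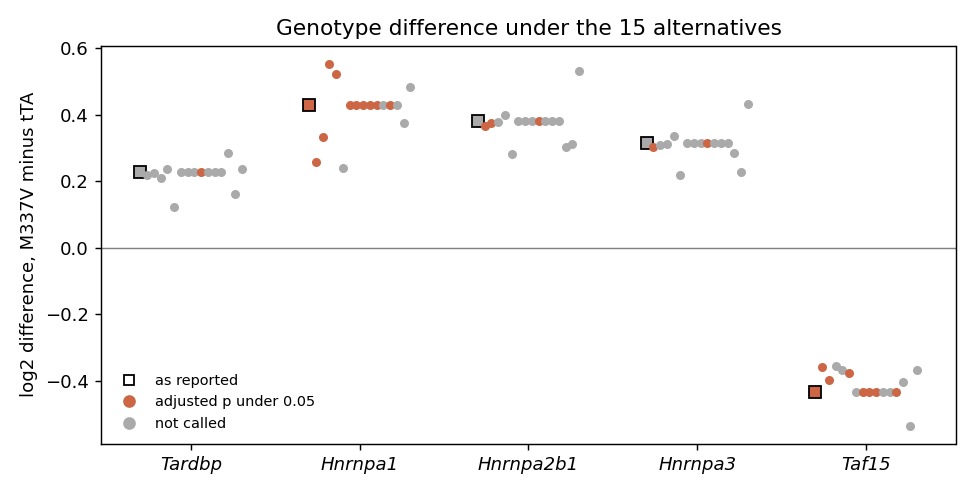
Log2 difference, M337V minus tTA (y), of each gene (x) as reported (framed square) and under 15 alternative settings (dots), coloured where the adjusted p was under 0.05. No sign changed, and Hnrnpa1 was called in 10 of the 15, Taf15 in 7, Hnrnpa2b1 in 3, Hnrnpa3 in 2 and Tardbp in 1.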

How the data were processed

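RNA was labelled with biotin by amplification and hybridised, per the labels' protocols. Per the file headers, one deposited table holds a mean bead signal intensity per probe (linear, not normalized) and a detection p-value, made in GenomeStudio by the submitters' processing notes (version not given in the sources used here). The authors' deposited value table is log2: between arrays it follows log2 signal less the upper quartile within 0.00215, its column medians lie between -0.15 and 0.07, and the centring of each probe is unknown.

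GEO's platform annotation names 13793 probes with 1 symbol, 0 with several, and 8730 stay unnamed. For 13752 of the named probes the Entrez identifier matched RefSeq's gene table (GRCr8, for names). limma 3.58.1 in R 4.3.3 corrected background by normexp from the detection p-values (offset 16), then quantile-normalized and took log2. Probes detected on at least 3 of 6 arrays were kept, the brightest per gene (7580 genes). Genotype and day effects came from lmFit and eBayes with both as factors (2 residual, 3.53 prior degrees of freedom), slopes from a genotype by day term (1 and 4.71), with Benjamini-Hochberg adjustment over all genes. Arrays are paired by the day in the labels; paired deviations from group means correlated at 0.441, 0.079 and 0.425 on days 3, 4 and 6. Fits were tested on simulated data. The number of arrays limits the precision.

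The genes, lists and tests were chosen with earlier results of these data known. Named are the measured genes of the set, up to 4 per list with the largest differences, the 5 most correlated with Tardbp, and the markers Gfap, Aif1 and Sox10 (log2 difference 3.24). Some other marker genes are named in passing. Alternatives changed the background, scaling, filter, probe, variance and day settings or left out a day.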

Additional observations from a re-analysis of the deposited data

How the results depend on the processing

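The sign of the genotype difference was the same for all 5 genes in all 15 alternatives, while the calls were not. Called in addition were Hnrnpa2b1 without background correction (0.365, making 3 of the 5 genes higher and 5 genes of the related lists higher), with an offset of 50 (0.374; 2 and 3 higher) and with a variance trend (0.382; 4 and 9 higher), Hnrnpa3 without background correction (0.302) and with the trend (0.315), and Tardbp with the trend (0.227). Taf15 was no longer called with median scaling (-0.356), cyclic loess (-0.368), no filter on dim probes (-0.434) or robust eBayes (-0.434), which left 0 of the 5 lower. Hnrnpa1 was not called with the deposited values (0.239), leaving 0 higher. With no replicate block, where the day is the pairing, neither Hnrnpa1 (0.429) nor Taf15 (-0.434) was called, leaving 0 in each direction, and 2 related genes were lower. Median scaling left 0 related genes higher and 2 lower, and no filter 0 higher. Leaving out a day gave Hnrnpa1 0.376 to 0.483 and Taf15 -0.534 to -0.367, neither called, so 0 of the 5 in each direction, with 0 related genes higher and 1 to 2 lower; such fits have fewer arrays. From day 3 to day 6, Tardbp was called without background correction (-0.4) and with the trend (-0.417), making 2 lower, and Hnrnpa1 was not with median scaling (-0.646) or, in a fit added after seeing the data, without day 4 (-0.871), leaving 0. Median scaling reversed Taf15 with day (0.101) and the slopes of Hnrnpa1 (0.109), Hnrnpa3 (0.005) and Taf15 (0.09), none called either way. Apart from construction as stated, the cause was not tested. Over all genes, alternatives gave 384 to 967 higher and 247 to 1121 lower against 739 and 747, and 39.7% (deposited values) to 64.5% (median scaling) of calls higher against 49.7%; for day, 0 (without day 4) to 552 higher and 1 (without day 4) to 429 lower against 131 and 84; for slopes, 0 to 190 and 0 to 72 against 0. Leaving out a day from the slope fit was not run, since no residual degrees of freedom would remain, and days 3 and 6 define the day change.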
